A study of Mus musculus with 56 samples.

Results

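The genes described here encode the proteins of the mitochondrial ribosome, and they were chosen by name: every row of the deposited table whose symbol was Mrpl or Mrps followed by a number and at most a letter, with the pseudogene Mrpl23-ps1 left out. This gave 78 genes of 18088 in the table, 49 named for the large subunit (Mrpl) and 29 for the small subunit (Mrps). RNA sequencing was done on the prefrontal cortex of 56 C57BL/6J mice, some with a heterozygous Scn2a genotype (HT) and some wild type (WT), sampled on postnatal day 25 after 3 weeks of drug or vehicle given through the mother's milk from day 3 to day 24. Scn2a encodes a voltage-gated sodium channel of neurons, lithium is a mood stabiliser and fluoxetine blocks serotonin reuptake. With the sexes together there were 10 HT lithium, 9 HT fluoxetine, 10 HT vehicle, 9 WT lithium, 9 WT fluoxetine and 9 WT vehicle libraries, each from 4 or 5 females and 4 or 5 males. The labels state no allele, dose, dam or litter. Pups of a group may therefore have shared a mother, and p-values measure the spread between these libraries.

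Mitochondria keep a ribosome of their own, which makes only the few oxidative phosphorylation proteins encoded by mitochondrial DNA. Its RNAs come from that DNA, but all of its proteins are encoded in the nucleus, made in the cytosol and imported. The small subunit reads the messenger RNA and the large subunit joins the amino acids and feeds the new chain to the inner membrane. Some of the proteins descend from bacterial ribosomal proteins and others were added during the evolution of mitochondria. Neurons draw most of their ATP from the respiratory chain, and the translation of its subunits needs both subunits of this ribosome.

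A value below is the authors' read count divided by a size factor for each library, and libraries held between 24.3 and 36.4 M recovered reads (median 27.9 M). As a check of the labels, Scn2a values lay between 7583 and 9619 in the HT libraries and between 9727 and 13381 in the WT libraries, with no overlap. A score above 1 (the mean log2 level of 9 olfactory bulb or 9 striatal markers, less its median over libraries) was found in 20 of the 56 libraries: 5 of HT lithium, 3 of HT fluoxetine, 4 of HT vehicle, 2 of WT lithium, 3 of WT fluoxetine and 3 of WT vehicle. Results that rest on these libraries are given with and without them. In bulk tissue, fewer cells of a type and less RNA per cell cannot be told apart. All 78 genes passed the filter on low values (at least 10 in at least 4 libraries), which 17778 genes passed in all. Called means that limma gave an adjusted p (Benjamini-Hochberg, over those 17778 genes) under 0.05, and log2 changes are of the value plus 1.

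All 78 mitoribosomal genes were expressed in every library, and together they took 0.159% to 0.181% of the summed value of a library. Per kb of transcript, the median level was 566 for the large subunit and 478 for the small subunit genes, against 197 for all genes tested. The levels of the mRNAs spanned a wide range. Mrpl20 (1975 per kb), Mrpl48 (1606 per kb) and Mrpl4 (1408 per kb) had the highest levels of the large subunit, and Mrpl1 (95.2 per kb), Mrpl47 (103 per kb) and Mrpl32 (135 per kb) the lowest. In the small subunit the order ran from Mrps21 (1652 per kb), Mrps17 (1635 per kb) and Mrps33 (1457 per kb) down to Mrps25 (145 per kb), Mrps16 (140 per kb) and Mrps30 (129 per kb). These levels depend on the transcript length used, the median of a gene's coding transcripts, and the 6 lowest genes named have lengths of 2572 to 6073 bases.

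Libraries of a group differed little in these genes. The median SD within the 12 groups of genotype, treatment and sex was 0.080 on the log2 scale, against 0.13 for all genes tested. Mrps17 (SD 0.037) and Mrpl3 (SD 0.039), the genes with the highest mean values of their subunits, varied least. Mrpl23 (SD 0.29), with a mean value of 98.5 the lowest of all 78, and Mrps24 (SD 0.22) varied most, so these genes gave the least precise changes. Mrpl23 also has a pseudogene copy in the table, and reads of near-identical copies can be split between them, so its values are uncertain.

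The genes lay on 17 chromosomes, with 11 genes on chromosome 11. A divergent coding gene started within 1000 bases of 18 of the 78 (23.1%), against 1369 of 15127 tested coding genes (9.05%). Mrps11 and Mrpl46, from the small and the large subunit, face away from each other on chromosome 7 and overlap at their starts. Neither is among the 18, so that count leaves out at least this overlapping pair. In GENCODE vM21 (GRCm38) the genes most often named below lie as follows: Mrpl12 at chr11:120484613-120489065, Mrpl53 at chr6:83109040-83109939, Mrpl21 at chr19:3282901-3292837, Mrpl57 at chr14:57826234-57829296, Mrps2 at chr2:28468066-28471178 and Mrpl28 at chr17:26123500-26126613 on the plus strand, and Mrpl48 at chr7:100545751-100608301 and Mrpl40 at chr16:18872018-18876862 on the minus strand. In the promoter windows of RefSeq (GRCm38.p6, 250 bases before to 50 bases after a start; 69 of the 78 genes matched), the letters CCGGAAG of ETS factors such as GABP stood in 36.2% of the members' windows and 15.7% of all windows of tested genes, searched on both strands. The NRF1 motif (GCGCA, any base, GCGC) stood in 18.8% against 9.10%, and AAGATGGC, that of YY1, in 17.4% against 4.12%. GGGCGG, that of SP1, stood in 49.3% of the members' windows and in 60.9% of all windows. By subunit, SP1 letters stood in 39.5% of the 43 large and 65.4% of the 26 small subunit windows. NRF1 letters stood in 23.3% and 11.5%, ETS letters in 32.6% and 42.3%, and YY1 letters in 14.0% and 23.1%. The ETS, NRF1 and YY1 letters were each found in a minority of members. At least 1 of these 3 stood in 60.9% of the members' windows and in 25.8% of all windows. These are matches of letters, counted in 12622 windows for all genes. The shares were not tested, and they say nothing of whether a factor was bound.

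Lithium in HT mice gave the most calls among these genes. Of the 49 large subunit genes 10 fell in HT lithium compared with HT vehicle, and 0 rose. None of the 29 small subunit genes was called in either direction, although 8 were lower at an unadjusted p below 0.05. The 10 calls were 12.8% of the 78 members, where 4.13% of all genes tested were called lower, 4.64% higher and 8.77% in either direction. By direction alone, 43 of the 49 large subunit genes (median log2 change -0.07) and 23 of the 29 small subunit genes (median -0.05) were lower, against 8938 of 17778 genes tested (median 0.00). At an unadjusted p below 0.05, 27 members were lower and 0 higher, and of all genes 2078 were lower and 2067 higher. The changes were small: values fell by 6.23% (Mrpl33) to 16.3% (Mrpl53) among the 10 called genes. The count was 1 without the 20 libraries high in olfactory or striatal markers (Mrpl53; 1.63% of all genes called lower) and 1 with slopes on transcript length and GC content as covariates (Mrpl12; 1.07% of all genes called lower), so 1 of 78 members was then near the share of all genes. That only large subunit genes were called does not show that the subunits differed, which was not tested.

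**Figure D1:**
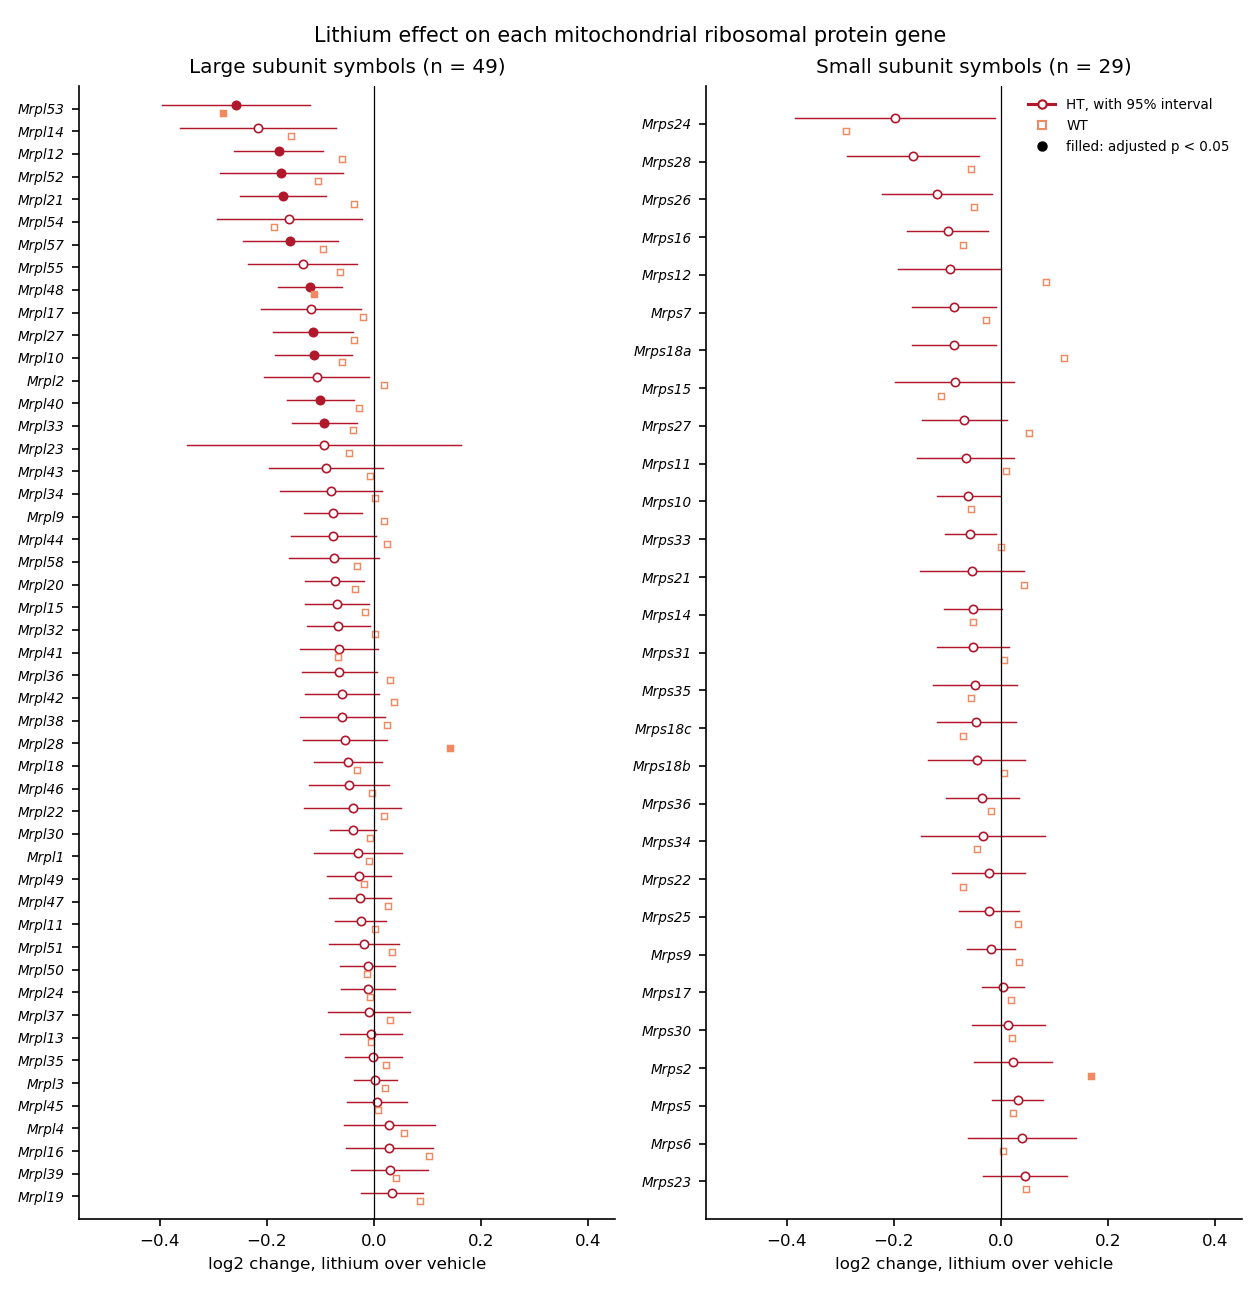
Log2 change under lithium (lithium over vehicle) for each gene, large subunit left and small subunit right, in HT mice (red circles with 95% intervals) and WT mice (orange squares); filled symbols have an adjusted p below 0.05. The HT values of 43 of 49 large and 23 of 29 small subunit genes lie below 0, and Mrps2 and Mrpl28 are the filled symbols above 0, both in WT.

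Mrpl12, Mrpl10 and Mrpl53 belong to or lie near the stalk of the large subunit, the arm that recruits translation factors, as does Mrpl11, which was not called (-0.03, adjusted p = 0.56). They are put together here for their place, after their values were seen. Mrpl12, which forms the mobile end of this stalk and has also been reported to bind the mitochondrial RNA polymerase, had values of 901 to 1163 (median 1014) in HT lithium libraries and of 1062 to 1268 (median 1162) in HT vehicle libraries. Of the HT lithium libraries 7 of 10 lay below the lowest HT vehicle library, and the ranges overlapped. Its log2 change was -0.18 ± 0.042 (SE; adjusted p = 0.0050), in 10 of 10 libraries below the HT vehicle mean of their sex. Mrpl10, which anchors Mrpl12 to the ribosome, had values of 875 to 1026 (median 924) under lithium and of 921 to 1073 (median 1024) under vehicle in HT mice. The groups overlapped, with 4 HT lithium libraries below all HT vehicle libraries, and the change was -0.11 ± 0.036 (adjusted p = 0.040). Mrpl53, a protein specific to mitochondria that sits near the stalk in human structures, had values of 305 to 423 (median 346) in HT lithium and 336 to 514 (median 418) in HT vehicle libraries. It had the largest change of the 78, -0.26 ± 0.069 (adjusted p = 0.013), with 5 of 10 HT lithium libraries below the lowest HT vehicle library. Mrpl53 is a short gene that a predicted gene, Gm42688, overlaps on the same strand, and reads of such a pair are hard to assign. In all, 13 of the 78 members overlapped a gene on the same strand, among them Mrpl21 (Mir6984) and Mrpl33 (Gm43809), called below. Another 36 of 78 is the count of members that overlapped a gene on the other strand, Mrpl48 among them, and a member can be in both counts.

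The promoter windows of Mrpl53, Mrpl12 and Mrpl57, which fell in HT lithium mice, and of Mrps2, which rose in WT lithium mice (below), are shown because they hold different motifs; matches to the NRF1 and ETS letters on either strand are in capitals.
Mrpl53 (chr6:83108858-83109157, plus strand): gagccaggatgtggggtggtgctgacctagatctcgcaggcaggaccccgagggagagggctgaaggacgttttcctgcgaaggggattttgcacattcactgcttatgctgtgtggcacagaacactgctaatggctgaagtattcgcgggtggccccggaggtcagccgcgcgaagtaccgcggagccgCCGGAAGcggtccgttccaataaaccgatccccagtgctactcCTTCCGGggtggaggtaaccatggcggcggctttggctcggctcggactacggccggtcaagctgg
Mrpl12 (chr11:120484387-120484686, plus strand): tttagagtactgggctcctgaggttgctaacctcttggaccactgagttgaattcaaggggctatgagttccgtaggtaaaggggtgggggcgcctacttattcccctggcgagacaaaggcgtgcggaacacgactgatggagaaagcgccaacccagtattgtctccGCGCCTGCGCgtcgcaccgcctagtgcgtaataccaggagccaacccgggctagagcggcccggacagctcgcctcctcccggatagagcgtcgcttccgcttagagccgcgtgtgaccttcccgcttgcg
Mrpl57 (chr14:57825989-57826288, plus strand): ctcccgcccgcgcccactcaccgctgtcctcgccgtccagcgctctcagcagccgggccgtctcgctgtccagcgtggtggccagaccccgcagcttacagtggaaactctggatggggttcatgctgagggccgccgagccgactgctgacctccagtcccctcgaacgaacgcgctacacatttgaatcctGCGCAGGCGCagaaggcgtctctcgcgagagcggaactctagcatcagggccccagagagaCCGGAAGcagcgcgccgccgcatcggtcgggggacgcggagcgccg
Mrps2 (chr2:28467816-28468115, plus strand): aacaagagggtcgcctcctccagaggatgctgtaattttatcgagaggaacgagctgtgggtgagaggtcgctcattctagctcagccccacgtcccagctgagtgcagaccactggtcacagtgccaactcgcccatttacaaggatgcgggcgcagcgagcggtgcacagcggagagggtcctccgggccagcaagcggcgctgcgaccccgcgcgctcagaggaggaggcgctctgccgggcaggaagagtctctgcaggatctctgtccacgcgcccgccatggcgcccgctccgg
Mrpl53 had ETS letters at 59 and 16 bases before its start, and Mrpl12 had the NRF1 letters 81 bases before. Mrpl57 had both, the NRF1 letters 57 bases before and the ETS letters at base 5 of the transcript, while Mrps2 had neither, nor those of YY1. Single or paired ETS letters stood in the windows of Mrpl21, Mrpl27, Mrpl33 and Mrpl52 as well, and those of Mrpl10, Mrpl40 and Mrpl48 had none of the 3 motifs.

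Mrpl48, Mrpl40 and Mrpl52 lie in the central protuberance, the crest of the large subunit, and were likewise put together after their values were seen. Other proteins there, Mrpl18 (-0.05, adjusted p = 0.36), Mrpl38 (-0.06, adjusted p = 0.38) and Mrpl46 (-0.05, adjusted p = 0.47), were not called. Mrpl48 had values of 1215 to 1423 (median 1298) in HT lithium libraries and 1359 to 1524 (median 1395) in HT vehicle libraries. All but 1 of the 10 HT lithium libraries lay below the lowest HT vehicle library, and the log2 change was -0.12 ± 0.030 (adjusted p = 0.0077). Mrpl40, a gene of the region deleted in human DiGeorge syndrome, had values of 387 to 457 (median 407) in HT lithium and 424 to 453 (median 436) in HT vehicle libraries. Here 9 HT lithium libraries lay below every HT vehicle library while HT lithium male 5 lay above them all, and the change was -0.10 ± 0.031 (adjusted p = 0.032). Mrpl52 had values of 234 to 305 (median 278) in HT lithium and 253 to 352 (median 313) in HT vehicle libraries. The ranges overlapped widely, with 3 HT lithium libraries below the lowest HT vehicle library, and its change of -0.17 ± 0.057 was just past the threshold (adjusted p = 0.046). Without the 20 libraries named above the change of Mrpl52 was -0.10 (adjusted p = 0.57).

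The remaining called genes of the large subunit were 3 with bacterial counterparts and 1 without. Mrpl21 had values of 365 to 451 (median 409) in HT lithium libraries and 395 to 520 (median 460) in HT vehicle libraries. Each HT lithium library was below the HT vehicle median, with overlapping ranges, and the log2 change was -0.17 ± 0.040 (adjusted p = 0.0051). Mrpl27, whose bacterial counterpart reaches the site of peptide bond formation, had values of 615 to 670 (median 639) in HT lithium and 653 to 781 (median 685) in HT vehicle libraries. Its HT lithium libraries were closely spaced, 8 of 10 below the lowest HT vehicle library, and the change was -0.11 ± 0.037 (adjusted p = 0.043). Mrpl33 had values of 355 to 411 (median 384) in HT lithium and 380 to 462 (median 406) in HT vehicle libraries, with a change of -0.09 ± 0.030 (adjusted p = 0.044). Its highest HT vehicle library, HT vehicle female 2, stood well above the rest. Mrpl57, specific to mitochondria, had values of 368 to 447 (median 429) in HT lithium and 425 to 513 (median 471) in HT vehicle libraries. All 10 HT lithium libraries were below the HT vehicle median and 8 HT vehicle libraries were above the highest HT lithium library, and the change was -0.16 ± 0.044 (adjusted p = 0.019).

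**Figure D2:**
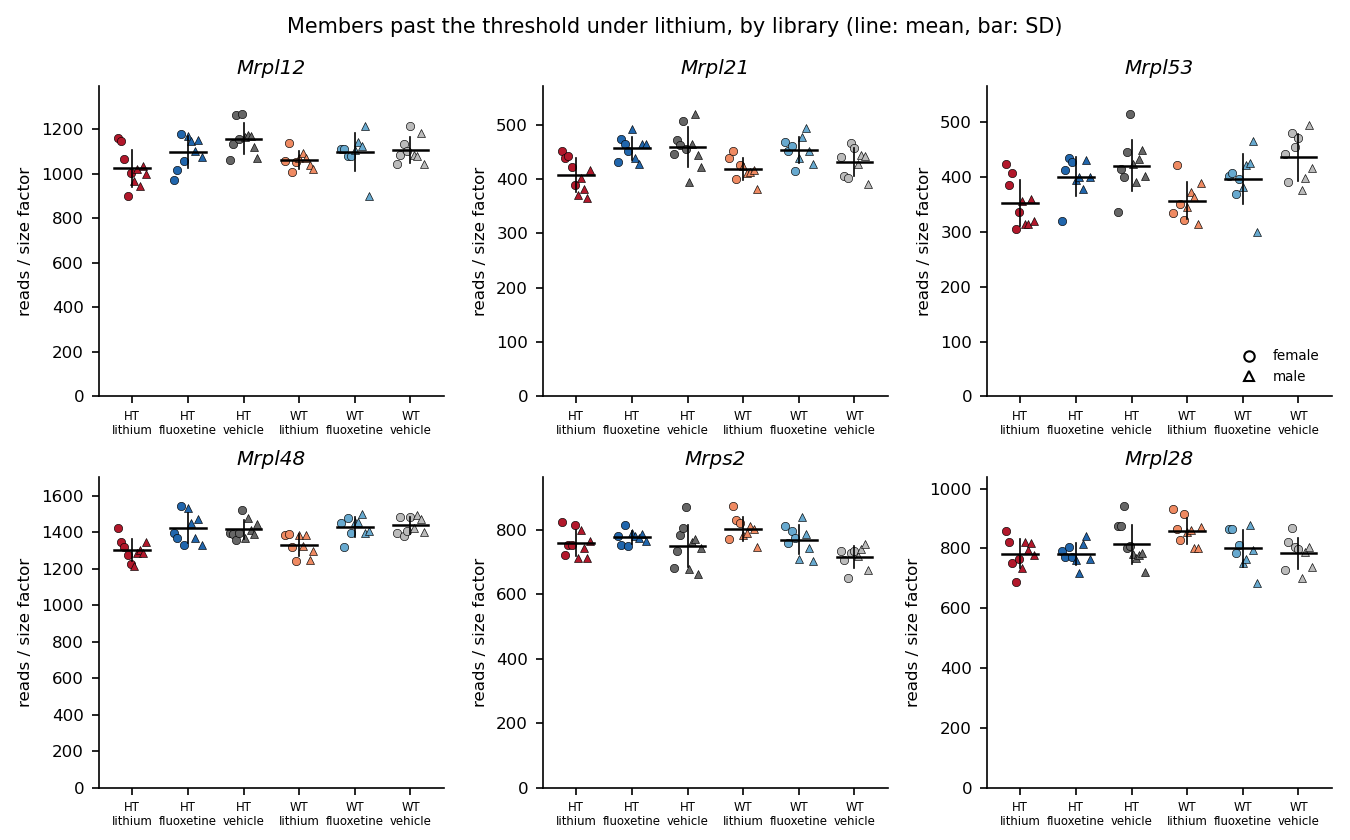
Value (reads divided by size factor) of 6 called genes in each library of the 6 groups of genotype and treatment, with the mean (line) and SD (bar); circles are females and triangles males. Mrpl12, Mrpl21, Mrpl53 and Mrpl48 are lower in HT lithium than in HT vehicle libraries, and Mrps2 and Mrpl28 higher in WT lithium than in WT vehicle libraries, with overlap in each panel.

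Some genes with larger changes than most of the called ones missed the threshold in HT mice. For Mrpl14, which has a bacterial counterpart, the change was -0.22 ± 0.073 (adjusted p = 0.051). The small subunit genes with the lowest values of the change were Mrps24 (-0.20, adjusted p = 0.18), Mrps28 (-0.16, adjusted p = 0.084) and Mrps26 (-0.12, adjusted p = 0.14). At the other end stood Mrps23 (0.04, adjusted p = 0.53), Mrps6 (0.04, adjusted p = 0.69) and Mrps5 (0.03, adjusted p = 0.45), and in the large subunit Mrpl19 (0.03, adjusted p = 0.53), Mrpl39 (0.03, adjusted p = 0.68) and Mrpl16 (0.03, adjusted p = 0.73). Mrps18a and Mrps30 are named for the small subunit but sit in the large subunit of mammalian structures. Their changes were -0.09 for Mrps18a (adjusted p = 0.16) and 0.01 for Mrps30 (adjusted p = 0.86). Mrps36, which later work places in the 2-oxoglutarate dehydrogenase complex rather than in the ribosome, had a change of -0.04 (adjusted p = 0.57). Large subunit genes with a bacterial counterpart (26 of 30 lower, 5 called) and those specific to mitochondria (17 of 19 lower, 5 called) had medians of -0.07 each, and the 16 and 12 small subunit genes of these kinds had medians of -0.06 and -0.05.

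In WT mice lithium changed 4 of the genes, and not in a single direction. Mrpl53 and Mrpl48 fell, Mrps2 and Mrpl28 rose, and of all genes tested 1.88% were called lower, 3.84% higher and 5.71% in either direction. Directions over the members were balanced, with 28 of 49 large subunit genes lower (median -0.01) and 16 of 29 small subunit genes higher (median 0.004). The small median was -0.004 after TMM rescaling and the large one was 0.02 with slopes on transcript length and GC content as covariates, so neither has a stable sign. The split of calls over all genes, 682 higher and 334 lower, was 460 and 358 in edgeR with TMM factors. Olfactory bulb markers had a median change of -0.63 (9 of 9 lower) and striatal markers of 0.28 (9 of 9 higher) in WT lithium mice, with 0 called (limma; 0 at an unadjusted p below 0.05). Without the 20 libraries named above 1 member was called in WT mice, Mrps2, beside 1.06% of all genes.

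Mrps2, the small subunit counterpart of bacterial S2, had values of 747 to 874 (median 800) in WT lithium libraries and 649 to 755 (median 728) in WT vehicle libraries. All but 1 of the 9 WT lithium libraries lay above the highest WT vehicle library, and the log2 change was 0.17 ± 0.038 (adjusted p = 0.0074). In females alone it was 0.21 (adjusted p = 0.049) and in males alone 0.12 (adjusted p = 0.35). Of all genes, 0.585% were called higher and 0.799% in either direction in WT females. Mrpl28, a core protein with a bacterial counterpart, had values of 801 to 932 (median 860) in WT lithium and 700 to 867 (median 798) in WT vehicle libraries. The ranges overlapped, 5 of 9 WT vehicle libraries lying below all WT lithium libraries, and the change was 0.14 ± 0.041 (adjusted p = 0.032). Mrpl28 was not called in edgeR or voom.

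Mrpl53 had values of 315 to 422 (median 350) in WT lithium and 375 to 495 (median 442) in WT vehicle libraries. Of the WT lithium libraries 7 of 9 lay below the lowest WT vehicle library, and the change was -0.28 ± 0.073 (adjusted p = 0.016), close to the -0.26 in HT mice. Mrpl48 had values of 1242 to 1389 (median 1324) in WT lithium and 1379 to 1495 (median 1425) in WT vehicle libraries. There 5 WT lithium libraries lay below the lowest WT vehicle library, with some overlap, and the change of -0.11 ± 0.032 (adjusted p = 0.026) stood beside -0.12 in HT mice. With slopes on transcript length and GC content as covariates, Mrpl48 was called in neither genotype. Genes near the threshold in WT mice were Mrps24 (-0.29, adjusted p = 0.066), Mrpl19 (0.09, adjusted p = 0.077) and Mrps18a (0.12, adjusted p = 0.078). Further down were Mrpl54 (-0.19, adjusted p = 0.10), Mrpl16 (0.10, adjusted p = 0.15), Mrpl14 (-0.16, adjusted p = 0.23), Mrps15 (-0.11, adjusted p = 0.26), Mrps16 (-0.07, adjusted p = 0.29) and Mrps12 (0.08, adjusted p = 0.34). Mrps30 (0.02, adjusted p = 0.79) and Mrps36 (-0.02, adjusted p = 0.82) were near 0.

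Whether lithium acted differently in HT and WT mice was tested as the interaction of genotype and lithium. In limma 0 of the 78 genes were called, with 7 at an unadjusted p below 0.05, and edgeR, DESeq2 and voom also called 0 members. The share of all genes at this unadjusted p is not given here, so the 7 cannot be read as an excess. Of all genes 0.0% were called by limma, and 4 genes by DESeq2. The smallest p-values were those of Mrps18a (-0.20 ± 0.057, adjusted p = 0.21) and Mrpl28 (-0.20 ± 0.057, adjusted p = 0.22). For Mrps18a the effect was -0.09 in HT and 0.12 in WT mice, and for Mrpl28 it was -0.05 and 0.14. The interaction was negative for 65 of the 78 genes, with medians of -0.05 (large) and -0.03 (small), against -0.01 for all genes. Mrps2 (-0.15, adjusted p = 0.32) and Mrps12 (-0.18, adjusted p = 0.36) were next in the small subunit. In the large subunit Mrpl9 (-0.10, adjusted p = 0.38), Mrpl21 (-0.13, adjusted p = 0.41) and Mrpl2 (-0.13, adjusted p = 0.50) followed. A call in a single genotype is thus not shown to differ from the other genotype.

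The effect of genotype alone was compared under vehicle. There 0 of the 78 genes were called in HT against WT mice by limma, edgeR or voom, and 0.00562% of all genes were called by limma. DESeq2, whose filter on low counts gave 0 of the 78 members an adjusted p here, had 8 members at an unadjusted p below 0.05. At an unadjusted p below 0.05, 11 members were higher in HT mice and 0 lower. The shares of all genes at this p are given below within each sex only. They belong to other contrasts than the one over both sexes, so the 11 cannot be read as an excess. By direction 42 of 49 large subunit genes (median 0.03) and 22 of 29 small subunit genes (median 0.04) were higher in HT vehicle mice, against 9168 of 17778 genes tested (median 0.00). This comparison had a trend with transcript length: the median of all genes was 0.015 below 1 kb and -0.024 above 4 kb. Below 1 kb the median of the members was 0.023 (n = 36). In females alone 72 of 78 members were higher, with medians of 0.05 (large) and 0.06 (small), and in males alone 49 of 78, with medians of 0.02 and 0.005. At an unadjusted p below 0.05 (limma), 8.97% of members were higher in females and 3.85% in males, beside 2.57% and 2.90% of all genes. Lower were 0% and 1.28% of members, beside 3.25% and 2.09% of all genes. The difference between the sexes was called for 0 members (limma; 0 at an unadjusted p below 0.05). The smallest p belonged to Mrps18a, with values of 789 to 1010 (median 883) in HT vehicle and 767 to 850 (median 799) in WT vehicle libraries. The groups overlapped, with 6 of 10 HT vehicle libraries above the highest WT vehicle library, and the log2 difference was 0.14 ± 0.040 (adjusted p = 0.21). Mrps11 (0.12, adjusted p = 0.37), Mrps12 (0.13, adjusted p = 0.37), Mrpl44 (0.11, adjusted p = 0.32) and Mrpl21 (0.09, adjusted p = 0.44) also had larger differences, and Mrpl9 (0.08, adjusted p = 0.30) was higher in 10 of 10 HT vehicle libraries than the WT vehicle mean of their sex. The same HT vehicle libraries are the control of the lithium and fluoxetine effects in HT mice, so a high level in them enters those effects and the interactions with the opposite sign.

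Under lithium 0 members were called between HT and WT mice in limma, edgeR, voom or DESeq2, where 63 of the 78 had an adjusted p, with 3 lower and 1 higher at an unadjusted p below 0.05, and limma called 0.0337% of all genes. For genotype under either drug the share of all genes at that unadjusted p is not given here, so such counts cannot be read as an excess. Under lithium Mrpl28 was nearest (-0.14 ± 0.040, adjusted p = 0.27), followed by Mrpl36 (-0.09, adjusted p = 0.37) and Mrps5 (0.05, adjusted p = 0.43). Under fluoxetine 0 were called by the same 4 tools, with 1 at an unadjusted p below 0.05, Mrpl15 (-0.08, adjusted p = 1.0), and 0.0112% of all genes were called. Mrpl23 had the largest value, -0.26 ± 0.13 (adjusted p = 1.0).

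Fluoxetine called none of the genes in either genotype. The shares of all genes at an unadjusted p below 0.05 are given further on, within each sex only. They belong to other contrasts than those over both sexes, so the counts at this p here cannot be read as an excess. In WT mice 0 were called by limma, edgeR, DESeq2 or voom, with 9 higher and 0 lower at an unadjusted p below 0.05, and 0.146% of all genes were called. Members were higher in 33 of 49 (large, median 0.02) and 24 of 29 cases (small, median 0.02). Mrpl19, which has a bacterial counterpart, was nearest at 0.10 ± 0.030 (adjusted p = 0.14), ahead of Mrps2 (0.11, adjusted p = 0.26), Mrps18a (0.11, adjusted p = 0.28) and Mrpl15 (0.08, adjusted p = 0.33). Among HT mice 0 were called by the same 4 tools, with 6 lower and 1 higher at an unadjusted p below 0.05, and 0.045% of all genes were called. Members were lower in 36 of 49 (large, median -0.03) and 17 of 29 cases (small, median -0.02). The smallest p-values were those of Mrpl35 (0.07, adjusted p = 0.50), Mrpl9 (-0.07, adjusted p = 0.52), Mrps26 (-0.12, adjusted p = 0.57) and Mrps12 (-0.11, adjusted p = 0.57). The interaction of genotype and fluoxetine called 0 by each of those tools, with 6 at an unadjusted p below 0.05, and 0.0% of all genes. For this interaction too, the share of all genes at the unadjusted p is not given. Among the values were those of Mrpl23 (-0.32 ± 0.19, adjusted p = 0.95), Mrps18a (-0.17 ± 0.058, adjusted p = 0.81) and Mrpl44 (-0.16 ± 0.058, adjusted p = 0.81).

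Females and males were also taken apart. In HT mice under lithium, 67 of the 78 genes were lower in females and 65 in males, with medians for the large subunit of -0.07 and -0.06 and for the small subunit of -0.06 and -0.04. At an unadjusted p below 0.05, 28.2% of the members (22) were lower in females and 7.69% (6) in males, beside 7.54% and 6.58% of all genes, so the share in males was near that of all genes. Within a sex 0 members were called in HT mice, where 0.349% and 0.264% of all genes were called lower, 0.641% (females) and 0.281% (males) higher, and 0.99% and 0.546% in either direction. The 10 genes called over both sexes had changes of -0.10 to -0.22 in females, Mrpl52 being the farthest from 0, and of -0.07 to -0.33 in males, Mrpl53 being the farthest. Under fluoxetine 62 of the 78 genes were lower in HT females and 34 in HT males, with 0 called in either sex by limma (10 and 0 lower, and 1 and 3 higher, at an unadjusted p below 0.05). The 10 lower in HT females were 12.8% of the members, beside 5.19% of all genes, and 1.95% of all genes were lower in HT males. The members higher in HT females and HT males were 1.28% and 3.85%, beside 5.28% and 2.42% of all genes. In WT females 0.0169% of all genes were called under fluoxetine, and 0 members. At an unadjusted p below 0.05 (limma), 3.85% of members were higher in WT females and 7.69% in WT males, beside 4.45% and 3.89% of all genes. Lower were 2.56% and 1.28% of members, beside 3.76% and 3.41% of all genes. The difference between the sexes was called for 0 members in limma, edgeR, DESeq2 or voom, for lithium in either genotype, fluoxetine in either genotype or the genotype effect under vehicle. The share of all genes called was 0.0% in each, and 0 to 5 members had an unadjusted p below 0.05.

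The level of a whole subunit can be followed in each library as a score, the mean over its genes of the log2 deviation from the gene's median. For the large subunit this score was -0.10 to 0.02 (median -0.04) in HT lithium, -0.07 to 0.11 (median 0.00) in HT fluoxetine and -0.03 to 0.11 (median 0.02) in HT vehicle libraries. In WT mice it was -0.09 to 0.04 (median -0.02) under lithium, -0.07 to 0.05 (median 0.02) under fluoxetine and -0.05 to 0.02 (median 0.01) under vehicle. The ranges of all 6 groups overlapped. Small subunit scores were -0.07 to 0.03 (median -0.02) in HT lithium and -0.04 to 0.11 (median 0.01) in HT vehicle libraries, and -0.06 to 0.05 (median -0.02) in WT lithium and -0.04 to 0.03 (median -0.01) in WT vehicle libraries. HT vehicle females 3, 4 and 5 had the highest scores of their group in both subunits, and HT vehicle female 1 and HT vehicle male 5 the lowest.

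**Figure D3:**
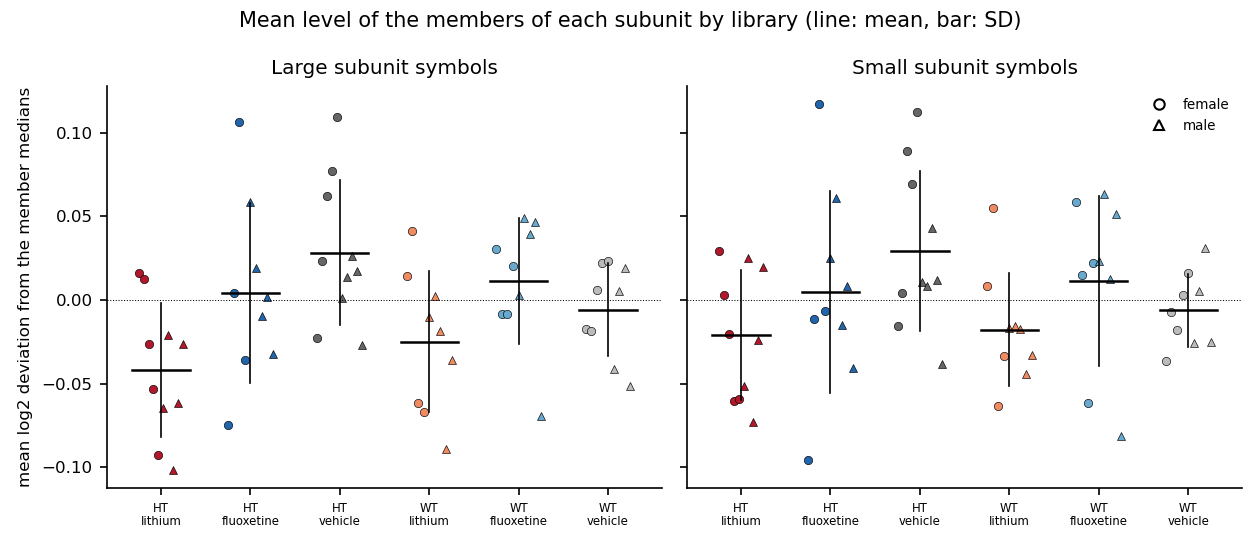
Mean log2 deviation of the large (left) and small (right) subunit genes from their medians over the 56 libraries, for each library of the 6 groups, with mean (line) and SD (bar); circles are females and triangles males. The HT lithium scores of the large subunit run from -0.10 to 0.02 and those of HT vehicle from -0.03 to 0.11, with overlap.

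After the group means were removed, the genes varied together over the 56 libraries. The median correlation of log2 residuals between pairs was 0.23 within the large subunit, 0.18 within the small subunit and 0.21 between them, against 0.003 between members and all other genes tested. With nuclear genes of the respiratory chain and ATP synthase it was 0.31, and with cytosolic ribosomal proteins 0.22. These correlations share libraries, depth and slopes with transcript length, and are a description.

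Other genes of mitochondrial translation were examined from lists of known function. The shares of all genes called, 8.77% in HT and 5.71% in WT mice, stand beside each count below, and with lists this small most counts are near them. Of the 5 mitoribosomal proteins measured under other symbols (Dap3, Ptcd3, Chchd1, Aurkaip1 and Gadd45gip1), 5 were lower under lithium in each genotype. Aurkaip1, a small subunit protein, fell in HT mice (-0.15 ± 0.042, adjusted p = 0.015), and Chchd1, likewise of the small subunit, fell in WT mice (-0.20 ± 0.056, adjusted p = 0.022). Neither was called in the other genotype (Aurkaip1 -0.07, adjusted p = 0.41; Chchd1 -0.12, adjusted p = 0.14). Translation factors of mitochondria had 0 of 15 called in HT mice (limma; 3 higher at an unadjusted p below 0.05) and 1 in WT mice, the elongation factor Gfm1, which rose (0.15 ± 0.039, adjusted p = 0.015). Mitochondrial aminoacyl-tRNA synthetases had 0 of 20 called in HT mice (limma; 1 at an unadjusted p below 0.05) and 2 in WT mice, Cars2 (-0.16, adjusted p = 0.039) and Ears2 (-0.19, adjusted p = 0.046). Of 31 assembly and RNA modification factors, Fastkd5 rose in HT (0.27, adjusted p = 0.020) and in WT mice (0.29, adjusted p = 0.024), while Mrm1 (-0.19, adjusted p = 0.040) and Ngrn (-0.08, adjusted p = 0.024) fell in HT mice. At most 3 called genes of a list were named per comparison, and the number called among these 31 is not given here.

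Of 18 genes of the mitochondrial RNA polymerase and genome maintenance, 0 were called in either genotype (limma; at an unadjusted p below 0.05, 1 in HT and 4 in WT mice). Regulators that drive nuclear genes for mitochondria had 0 of 19 called in HT mice (limma; 5 at an unadjusted p below 0.05) and 3 in WT mice. There Pprc1, a coactivator related to PGC-1alpha, rose (0.16, adjusted p = 0.038), Ddit3 rose (0.24, adjusted p = 0.049) and Gabpb2, a partner of GABP, fell (-0.17, adjusted p = 0.046). The factors whose letters were searched above had values of -0.06 for Nrf1 (adjusted p = 0.48), 0.03 for Gabpa (adjusted p = 0.76) and 0.06 for Yy1 (adjusted p = 0.22) in HT mice.

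The subunits of the complexes that the mitochondrial ribosome serves were measured as well. Of 74 nuclear genes of oxidative phosphorylation 67 were lower (median -0.06; 50.3% of all genes were lower) and 7 called (9.46%, beside 8.77% of all genes in either direction), among them Ndufa7 of complex I (-0.29, adjusted p = 0.0058) and Atp5l of ATP synthase (-0.15, adjusted p = 0.0068). In WT mice 46 of 74 were lower (median -0.03), with 4 called lower and 3 higher. Among the 13 proteins encoded in mitochondrial DNA, the products of this ribosome, 12 mRNAs were lower in HT lithium mice (median -0.09) and mt-Nd6 was called (-0.50 ± 0.13, adjusted p = 0.013). The 13 share mitochondrial DNA, so their directions are not separate results. Their summed values overlapped, with 1.37e+06 to 1.71e+06 in HT lithium and 1.436e+06 to 1.825e+06 in HT vehicle libraries. In WT mice the sums were 1.388e+06 to 1.656e+06 under lithium and 1.450e+06 to 1.726e+06 under vehicle. Cytosolic ribosomal protein genes were lower in 80 of 80 cases in HT (median -0.15, 43 called) and in 75 of 80 in WT mice (median -0.15, 31 called). Lithium and fluoxetine effects within a genotype share their vehicle libraries, so the lists in them are not independent.

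**Figure D4:**
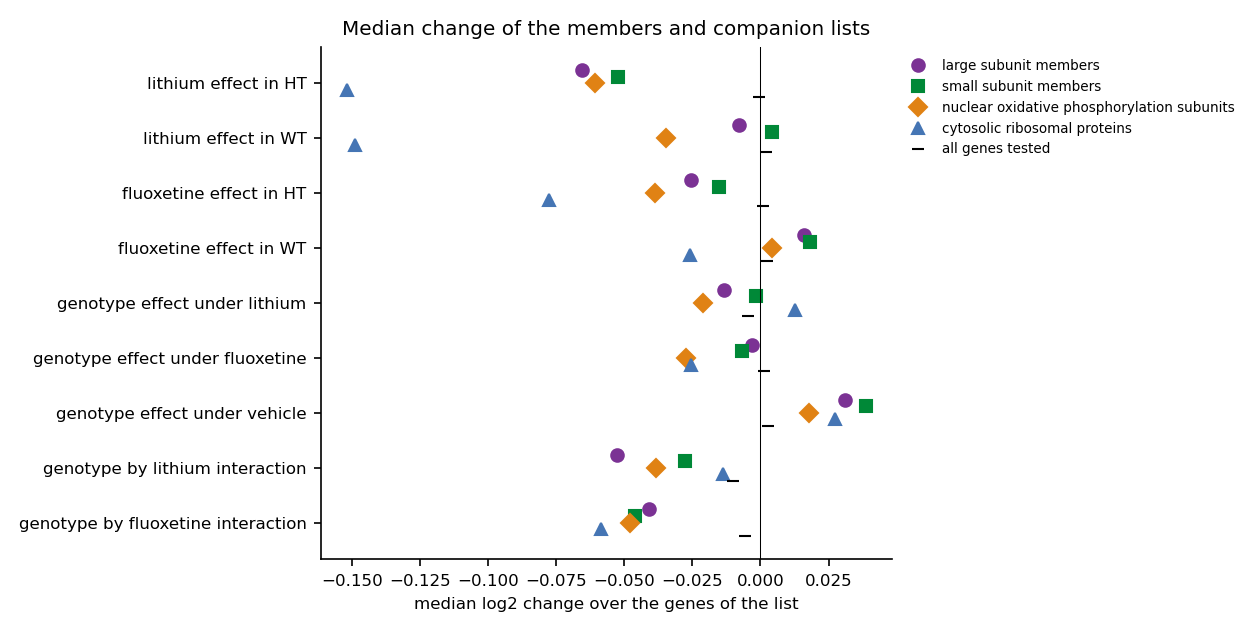
Median log2 change over the genes of each list in 9 comparisons: large and small subunit members, nuclear oxidative phosphorylation subunits, cytosolic ribosomal proteins and all genes tested. Both subunits lie below 0 for lithium in HT mice (-0.07 and -0.05) and near 0 for lithium in WT mice.

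The dependence of values on transcript length was set beside the lithium effects. Per SD of log2 transcript length, the slope of log2 values was 0.645 ± 0.016 in HT lithium and 0.623 ± 0.014 in HT vehicle libraries (SD over libraries, n = 10 each), and 0.648 ± 0.015 in WT lithium and 0.632 ± 0.0099 in WT vehicle libraries (n = 9 each). The mitoribosomal genes are short, with a median of 1134 bases (large) and 1018 bases (small) against 2149 for all genes tested. In HT lithium mice the median change of all genes tested was -0.04 below 1 kb, -0.02 at 1 to 2 kb, 0.01 at 2 to 4 kb and 0.04 above 4 kb. For members it was -0.08 (n = 36), -0.06 (n = 24), -0.02 (n = 15) and -0.02 (n = 3, too few to read). Other comparisons had a trend with length too. For fluoxetine in HT mice the median of all genes was -0.017 below 1 kb and 0.018 above 4 kb. It was -0.022 and 0.014 for the lithium interaction, and -0.025 and 0.023 for the fluoxetine interaction. Members below 1 kb had medians of -0.026, -0.049 and -0.025 in these 3 comparisons. With the slopes on length and GC content of each library as covariates, the calls in HT mice came down to 1, Mrpl12 (-0.10, adjusted p = 0.044), while calls over all genes came down to 256 higher and 191 lower, and the medians to -0.02 (large) and -0.01 (small). Values next in line were Mrpl53 (-0.17, adjusted p = 0.096) and Mrpl21 (-0.13, adjusted p = 0.099). In WT mice 6 members were called with these covariates, 4 higher and 2 lower, beside 2.84% of all genes called higher and 1.34% lower.

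**Figure D5:**
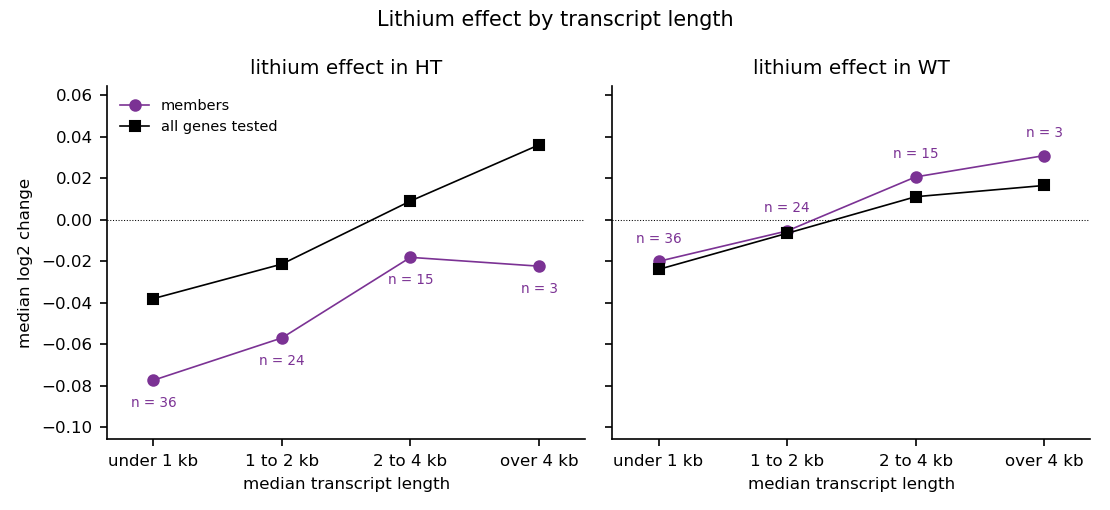
Median log2 change under lithium by transcript length for the members (purple, with the number of genes) and all genes tested (black), in HT (left) and WT mice (right). Short genes have lower values in both sets, and the members lie below all genes in each length class in HT mice but not in WT mice.

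Markers of other cells and regions were examined beside these results. Microglia markers were lower in 5 of 5 cases in HT lithium mice (median -0.08, 1 called), with summed values of 7634 to 8864 in HT lithium and 7837 to 9950 in HT vehicle libraries. Endothelial markers were lower in 3 of 4 cases (2 called lower, 1 higher), with sums of 3361 to 4411 in HT lithium and 3466 to 5020 in HT vehicle libraries, and oligodendrocyte markers were lower in 5 of 5 cases (0 called; 0 at an unadjusted p below 0.05). Of all genes tested 8.77% were called in HT mice in either direction. Mean microglia sums under lithium and vehicle were 8185 and 8658 in HT mice, and 8014 and 8661 in WT mice. Endothelial means were 3959.5 and 4257 in HT and 4283 and 4600 in WT mice, so both lists were lower in WT mice too. Astrocyte means were 33047 and 34021 in HT and 32808 and 34593 in WT mice. Means of excitatory neuron markers were 162086 under lithium and 165585 under vehicle in HT mice, and 167708 and 162506 in WT mice. Interneuron means were 20207 and 19653 in HT and 20020 and 20080 in WT mice. For both neuron lists the ranges of lithium and vehicle libraries overlapped in each genotype. No marker of microglia or endothelium was at 0 in any library. The part of these markers in the results was not tested. Without the 20 libraries high in olfactory or striatal markers, the medians in HT mice were -0.07 (large) and -0.05 (small), and 1 member was called, Mrpl53, among fewer libraries (5 HT lithium and 6 HT vehicle), where 1.63% of all genes were called lower. With the marker scores as covariates 11 members were called, all lower, beside 5.49% of all genes called lower.

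How firmly the 10 calls in HT mice stand differed between genes. Mrpl12, Mrpl21, Mrpl48 and Mrpl53 passed the threshold whichever single library was left out (highest adjusted p of 0.015, 0.016, 0.025 and 0.037). Without all 20 libraries high in olfactory or striatal markers, however, Mrpl12, Mrpl21 and Mrpl48 were not called. With slopes on length and GC content as covariates, Mrpl21, Mrpl48 and Mrpl53 were not called. Mrpl57 lost its call in 1 of 56 cases, without HT lithium female 3 (adjusted p = 0.053). Mrpl40 lost it in 8 cases (up to 0.068 without HT lithium female 5), Mrpl33 in 10 (up to 0.11 without HT vehicle female 2), Mrpl27 in 11 (up to 0.10 without HT vehicle female 5), Mrpl10 in 12 (up to 0.089 without HT lithium male 3) and Mrpl52 in 13 (up to 0.12 without HT lithium female 5). Calls also depended on the fit. In 12 other fits Mrpl33 lost its call in 6 (edgeR and DESeq2 among them), Mrpl40 in 4 (DESeq2 among them) and Mrpl52 in 4 (voom among them). Mrpl10 lost it in 3 of these fits, and Mrpl27 and Mrpl57 in 2 each. The count of calls was 5 without HT lithium female 5, HT lithium male 3 or HT vehicle male 2, and 6 without HT lithium female 3 or HT vehicle female 3. In WT mice Mrps2 and Mrpl53 kept their calls in all 56 cases (highest adjusted p of 0.026 and 0.049), Mrpl28 lost it in 6 (up to 0.093 without WT vehicle male 1) and Mrpl48 in 3 (up to 0.084 without WT lithium female 4, which left 2 calls). In the 12 other fits Mrpl28 lost its WT call in 3: voom, edgeR and the fit without the 20 libraries. Mrpl48 lost its WT call in 2, without the 20 libraries and with slopes on length and GC content. Mrpl53 lost it in 1, without the 20 libraries, and Mrps2 in 0. Mrps18a was called in the genotype effect under vehicle without HT vehicle female 1 (0.17, adjusted p = 0.047), and Mrpl19 in the fluoxetine effect in WT mice without WT fluoxetine male 1 (0.12, adjusted p = 0.040).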

How the data were processed

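mRNA libraries were made with a TruSeq Stranded kit according to the labels' protocols. The submitters' processing notes name Salmon 0.11.2, R 3.6.0, DESeq2 1.19.11 and the build GRCm38 without roles. The strand setting of the counting is not given in the sources used here, so reads of overlapping genes may be mixed. The values deposited by the authors are a signal: read counts divided by a size factor per library (0.818 to 1.23). Reads could be recovered from them: 100% of values in each library came out whole within 0.01 reads, though for 3 libraries (HT lithium female 5, and HT vehicle males 2 and 5) the step was too near 1 for a test. Symbols matched 18077 of 18088 gene IDs. No 2 libraries were identical (correlations of 0.977 to 0.99).

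In R 4.3.3, limma 3.58.1 (trend of variance with level, robust) was fitted to log2(value + 1) of 17778 genes with a mean for each of 12 groups, and contrasts averaged the sexes. It was also run on simulated data with independent libraries and planted changes larger than those of the called members. That run cannot vouch for calls of changes this small. Alternatives were TMM rescaling, voom, edgeR 4.0.16 (quasi-likelihood) and DESeq2 1.42.0 on the recovered reads, no filter, pseudocounts of 0.5 and 5, the compared groups alone, the replicate number as a block, marker scores or slopes on length and GC content as covariates, and leaving out libraries. Lengths are medians of GENCODE vM21 coding transcripts (99.9% of tested genes had one). Intervals are 95%.

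The members, lists and tests were chosen with earlier results of these data known. Per comparison, the genes to name were all called members, the 3 of each subunit with the largest change in each direction and, where none was called, the 2 of each subunit with the smallest p. Added to these were the 3 highest and 3 lowest of each subunit per kb, the 2 largest and 2 smallest SDs, Mrps30, Mrps18a, Mrps36, the proteins with other symbols, Scn2a, and up to 3 called genes of each companion list. Not all of them are printed for comparisons without calls.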

Additional observations from a re-analysis of the deposited data

Results flagged for a closer look

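Among the 12 members called under lithium and the scores of both subunits, 168 sets of 4 or 5 libraries were examined for a library far from the others, and 4 were found; chance gives about 1 in 20. Mrpl21 was 382 in WT lithium male 5, against 412 to 424 in the other males of that group. Mrpl28 was 720 in HT vehicle male 5, against 769 to 786 in the other males. Mrpl33 was 462 in HT vehicle female 2, against 405 to 413 in the other females, and without this library its lithium effect in HT mice was not called (adjusted p = 0.11). Mrpl48 was 1524 in HT vehicle female 5, against 1359 to 1395 in the other females, and its call in HT mice held without any single library (adjusted p of at most 0.025).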

How the results depend on the processing

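The number of called members under lithium in HT mice (10) was 1 without the 20 libraries high in olfactory or striatal markers and 1 with slopes on length and GC content as covariates. The first of these fits had fewer libraries, and the cause of the change in the second was not tested. Without single libraries it was 5 to 12. In WT mice (4 called) it was 1 without the 20 libraries and 2 to 5 without single libraries. For fluoxetine in WT mice and genotype under vehicle (0 called) the range without single libraries was 0 to 1. The replicate numbers do not pair the libraries (median correlation of residuals of -0.031 to 0.025 between libraries with the same number), and with the replicate block 9 members were called in HT and 4 in WT mice. DESeq2 gave no count for genotype under vehicle, since no member had an adjusted p. The other alternatives left the 14 counts within 1.5 times, including TMM (11 in HT), edgeR (10) and DESeq2 (9). Scaling moved the median of all genes by at most 0.010.

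Among the members named in each comparison, those whose sign reversed were not called there. Without the marker-rich libraries these were, for lithium in HT mice, Mrps30 (-0.012) and Mrps6 (-0.0060); for genotype under vehicle, Mrpl48 (0.0048) and Mrpl53 (0.043); under fluoxetine, Mrps27 (-0.013) and Mrps35 (-0.011); under lithium, Mrpl18 (-0.037) and Mrpl54 (-0.045). For the lithium interaction they were Mrpl50 (-0.031), Mrpl53 (-0.066), Mrpl54 (-0.051) and Mrps6 (-0.00050), and for the fluoxetine interaction Mrpl53 (-0.14). With length and GC slopes, Mrps36 was 0.015 for lithium in WT and 0.010 in HT mice, Mrps24 0.00076 for genotype under fluoxetine and Mrpl50 -0.012 for the lithium interaction, where marker scores gave -0.0064. Without single libraries the ranges were -0.042 to 0.0062 (Mrps36, lithium in WT), -0.12 to 0.0039 (Mrps24, genotype under fluoxetine), -0.0031 to 0.088 (Mrps24, genotype under lithium), and for the lithium interaction -0.011 to 0.016 (Mrpl50), -0.014 to 0.067 (Mrpl53) and -0.0057 to 0.062 (Mrpl54).

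Mrpl23, at a mean of 98.5, allows little precision. Shared dams, if any, would make p-values of drug effects too small.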
